A study of Homo sapiens with 7 samples.

Results

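Loops of H3K27ac HiChIP that join the promoters of different genes were described in 3 human cancer cell lines: Ishikawa, from an endometrial adenocarcinoma, T-47D, from a breast ductal carcinoma, and LNCaP, from a prostate carcinoma. HiChIP pulls down DNA fragments that touch in the nucleus with an antibody, here against histone H3 acetylated at lysine 27 (H3K27ac), a mark of active promoters and enhancers, so contacts with a marked end are captured. A loop was a pair of different regions, called anchors, on the same chromosome, and its value was the number of read pairs joining them. It was called promoter-promoter when both anchors overlapped a 500 bp window centred on a start site of a protein-coding gene and no gene had windows in both anchors. Of 354783 loops in the 3 lists, 48553 met this rule.

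Each line had 1 list, which leaves every value without an error from replicates, and all intervals are 95% intervals (Wilson for shares) that cover counting error only. Where 3 values follow each other they stand in the order Ishikawa, T-47D, LNCaP. The Ishikawa list merged 2 samples given the vehicle DMSO and 2 given 10 nM E2 (17β-estradiol) for 1 h, the T-47D list held 1 sample, and the LNCaP list merged 2. Treatment of the T-47D and LNCaP cells is not in the labels. Ishikawa chromatin was cut with DpnII and the other chromatin with MboI. Sonication, read length and depth followed the same division, so wherever Ishikawa is compared with the other lines these steps and the line itself cannot be told apart. More cells making a contact and more frequent contact in each cell cannot be told apart either. The lists held 1040329 read pairs in Ishikawa, 351260 in the T-47D list and 1805322 in LNCaP, and no loop had fewer than 3.

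A promoter is the stretch of DNA around a start site where RNA polymerase II and general transcription factors assemble. Most human promoters, above all those of genes used in every cell, lie in CpG islands, which are rich in G, C and the dinucleotide CpG, whereas many promoters of tissue-restricted genes are poor in CpG and more often hold a TATA box. Active promoters gather in the nucleus with one another as well as with enhancers, and some promoters act as enhancers of neighbouring genes.

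Promoters of the gene pairs on which the comparison between lines turns are printed here from the GRCh37 genome, the build of the loops. PRDX1 with AKR1A1 led the pairs joined in all 3 lists, and ATG101 belongs to the next pair. KCNJ5, MAP6D1, and MCCC2 with CARTPT belong to the strongest pair joined in a single list, in Ishikawa, T-47D and LNCaP respectively. Each run is the 250 bases before a gene's canonical start site, read 5′ to 3′ on the gene's strand. Capitals mark matches on either strand to words found in promoters: GGGCGG (the GC box bound by Sp1), CCGGAA (the core of ETS factor sites), CCAAT (bound by NF-Y), TATAAA (the TATA box), AGATAA (bound by factors of the GATA family), TGTTTAC (forkhead factors), GCATGCGC (NRF1), ATGGCGGC (YY1), and GGTCA with TGACC 3 bases on (an estrogen response element). None of these words contains another.
PRDX1 (chr1:45987557-45987806, minus strand): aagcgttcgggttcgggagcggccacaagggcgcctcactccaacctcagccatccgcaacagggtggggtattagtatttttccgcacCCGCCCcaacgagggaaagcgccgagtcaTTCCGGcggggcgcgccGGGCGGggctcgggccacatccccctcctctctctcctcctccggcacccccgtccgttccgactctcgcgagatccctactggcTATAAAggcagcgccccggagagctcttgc
AKR1A1 (chr1:46016248-46016497, plus strand): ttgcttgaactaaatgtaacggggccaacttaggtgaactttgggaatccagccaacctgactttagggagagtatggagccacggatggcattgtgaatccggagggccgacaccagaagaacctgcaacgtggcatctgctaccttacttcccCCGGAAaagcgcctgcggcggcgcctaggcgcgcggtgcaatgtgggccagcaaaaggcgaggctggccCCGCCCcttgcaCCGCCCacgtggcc
ATG101 (chr12:52463512-52463761, plus strand): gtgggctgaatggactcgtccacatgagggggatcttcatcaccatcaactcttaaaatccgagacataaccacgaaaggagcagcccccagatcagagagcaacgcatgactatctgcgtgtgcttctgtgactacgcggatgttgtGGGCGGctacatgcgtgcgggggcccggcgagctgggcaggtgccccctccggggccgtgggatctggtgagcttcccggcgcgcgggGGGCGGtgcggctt
KCNJ5 (chr11:128761001-128761250, plus strand): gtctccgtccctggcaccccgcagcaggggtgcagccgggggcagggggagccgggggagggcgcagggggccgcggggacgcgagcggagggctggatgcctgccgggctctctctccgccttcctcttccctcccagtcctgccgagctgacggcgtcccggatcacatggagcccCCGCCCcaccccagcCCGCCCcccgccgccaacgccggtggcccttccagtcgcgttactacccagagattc
MAP6D1 (chr3:183543366-183543615, minus strand): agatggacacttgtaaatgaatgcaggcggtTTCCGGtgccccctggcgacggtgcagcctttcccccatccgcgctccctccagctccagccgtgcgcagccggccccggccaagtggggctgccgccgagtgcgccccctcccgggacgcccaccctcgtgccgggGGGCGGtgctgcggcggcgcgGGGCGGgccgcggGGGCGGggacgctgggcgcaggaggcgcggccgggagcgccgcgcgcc
MCCC2 (chr5:70882917-70883166, plus strand): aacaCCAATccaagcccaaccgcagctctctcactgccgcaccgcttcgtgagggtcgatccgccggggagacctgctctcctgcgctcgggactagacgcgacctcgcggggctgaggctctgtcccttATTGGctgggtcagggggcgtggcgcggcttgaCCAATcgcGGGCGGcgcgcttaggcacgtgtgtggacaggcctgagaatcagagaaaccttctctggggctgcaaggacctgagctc
CARTPT (chr5:71014852-71015101, plus strand): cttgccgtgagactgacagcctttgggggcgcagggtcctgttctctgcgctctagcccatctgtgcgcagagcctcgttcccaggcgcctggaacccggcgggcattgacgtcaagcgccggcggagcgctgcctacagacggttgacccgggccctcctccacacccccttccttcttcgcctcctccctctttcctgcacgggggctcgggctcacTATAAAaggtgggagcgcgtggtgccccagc
The 3 promoters shown from pairs joined in every list each held a GC box, and their GC content ran from 60.4% in AKR1A1 to 66.8% in PRDX1. KCNJ5 and MAP6D1 had 75.2% and 78.4%, with 24 and 35 CpG dinucleotides, and with so few promoters shown no order between the sets is read from these values. CARTPT, which encodes a neuropeptide, held no GC box in this stretch but a TATA box close to its start.

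Promoter-promoter loops made up very different shares of the lists. They were 7443 of 163530 Ishikawa loops, or 4.55% (interval 4.45 to 4.65%), 14103 of 42027 T-47D loops, or 33.6% (33.1 to 34.0%), and 27007 of 149226 LNCaP loops, or 18.1% (17.9 to 18.3%). None of these intervals overlapped another. With 1 start site per gene in place of all annotated starts, the shares were 1.57%, 23.2% and 11.05%, in the same order. A further 3890, 1259 and 3325 loops joined start sites of the same gene and were left out by the rule. Promoter-promoter loops held 4.86% of the read pairs of the Ishikawa list, 29.6% of those of the T-47D list and 16.6% of those of the LNCaP list. Of all loop ends, 20.4% lay over a promoter in Ishikawa, 56.3% in the T-47D list and 40.4% in LNCaP. Multiplying these shares by themselves gives 4.17%, 31.7% and 16.3%, so the promoter-promoter shares were 1.09, 1.06 and 1.11 times that product. With loops joining starts of the same gene counted too, the shares of loops with both ends over a promoter were 1.66, 1.15 and 1.25 times the product, highest in Ishikawa. Anchors of promoter-promoter loops had median widths of 6.12 kb in Ishikawa, 2.84 kb in the T-47D list and 4.16 kb in LNCaP, and wider anchors can hold more start sites.

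The Ishikawa list was made of 4 separately sorted parts that cannot be assigned to samples. Promoter-promoter loops were 3.94%, 4.33%, 6.94% and 3.98% of their loops, so every part was below both other lists. Of the 7443 Ishikawa promoter-promoter loops, 35.6% (34.5 to 36.7%) were in 2 or more parts and 4.80% in all 4, close to the 36.2% and 4.81% of loops joining a promoter to a distal anchor, which holds no promoter.

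Chromosome 19, which is dense in genes and carries most zinc finger gene clusters, had the highest share in each list: 13.1% of its loops in Ishikawa, 58.2% in the T-47D list and 50.3% in LNCaP. Among chromosomes with 20 or more promoter-promoter loops, gene-poor chromosome 13 had the lowest, at 1.33%, 16.6% and 5.72%. On these chromosomes the number of such loops per gene was uneven. It ran from 0.149 on chromosome 13 to 1.16 on chromosome 12 in Ishikawa, and from 0.176 on X to 1.23 on chromosome 17 in T-47D. In LNCaP it ran from 0.441 on X to 2.26 on chromosome 16. Of the 163530 Ishikawa loops of all classes, 20393 lay on chromosome 12. Between 5 kb and 2 Mb, shares were lowest at 5 to 20 kb. Of loops spanning 5 to 20 kb, 2.08% in Ishikawa, 19.5% in the T-47D list and 6.59% in LNCaP joined promoters of different genes, against 7.17%, 38.9% and 20.9% of loops spanning 100 to 200 kb. With loops joining starts of the same gene counted too, these shares were 6.19%, 29.15% and 13.5%, against 8.015%, 39.6% and 21.9%. Counted in this way, the Ishikawa share was lowest at 500 kb to 2 Mb, at 5.02%.

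**Figure D1:**
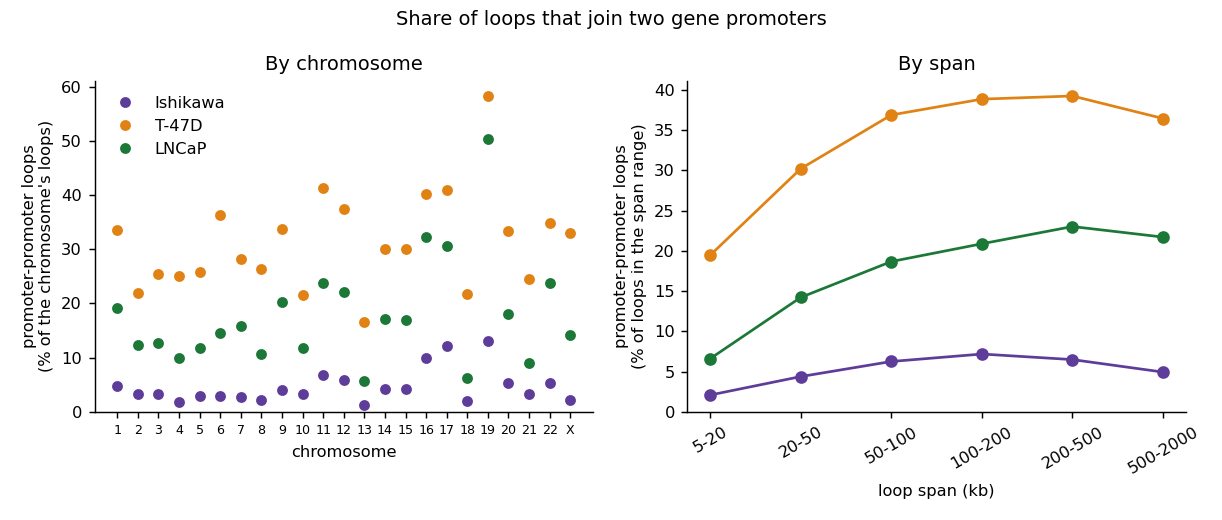
Promoter-promoter loops as a percent of all loops, by chromosome on the left and by loop span in kb on the right, with each of the 3 lists in its own colour. Chromosome 19 stands highest in every list (13.1%, 58.2% and 50.3%), and among the spans plotted each list's share is lowest at 5 to 20 kb. Loops joining starts of the same gene are not counted as promoter-promoter loops.

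Promoter-promoter loops were longer than loops from a promoter to a distal anchor. Their median spans were 65.1 kb (62.9 to 67.3) in Ishikawa, 108.3 kb (105.2 to 110.8) in the T-47D list and 157.9 kb (155.4 to 160.7) in LNCaP, and promoter-distal loops had medians of 44.3, 85.9 and 115.7 kb. The differences were 20.85, 22.4 and 42.2 kb. The direction was the same on 22 of 22 chromosomes with 20 or more promoter-promoter loops in Ishikawa and on 23 of 23 in both other lists. Loops between distal anchors were shorter still, with medians of 34.05, 69.9 and 99.2 kb. The rule leaves out loops joining starts of the same gene, which had medians of 17.8, 17.8 and 25.9 kb. The part of this omission in the longer spans of promoter-promoter loops was not tested.

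Read support depended on span. Median support was 4 read pairs in Ishikawa, 5 in the T-47D list and 6 in LNCaP, and 44.3% of the Ishikawa promoter-promoter loops sat at the minimum of 3. At 5 to 20 kb, 75.5% (73.1 to 77.7%) of LNCaP promoter-promoter loops had 10 or more read pairs, against 59.0% (57.9 to 60.1%) of promoter-distal loops. In T-47D these values were 60.6% (57.75 to 63.3%) and 48.5% (46.5 to 50.5%), while in Ishikawa they were 39.2% and 38.6% with overlapping intervals. At long spans the order turned. In T-47D promoter-promoter loops were lower from 100 kb on, at 9.19% against 10.4% with overlapping intervals at 100 to 200 kb and 4.06% (3.42 to 4.82%) against 6.49% (5.68 to 7.42%) at 200 to 500 kb. Beyond 500 kb it was turned in T-47D, where 2.11% (1.37 to 3.23%) of promoter-promoter and 6.22% (4.91 to 7.85%) of promoter-distal loops reached 10, and in LNCaP, at 7.26% (6.42 to 8.19%) and 9.41% (8.69 to 10.2%). In Ishikawa promoter-promoter loops kept the higher share at 3.95% against 1.43%, with intervals that overlapped.

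**Figure D2:**
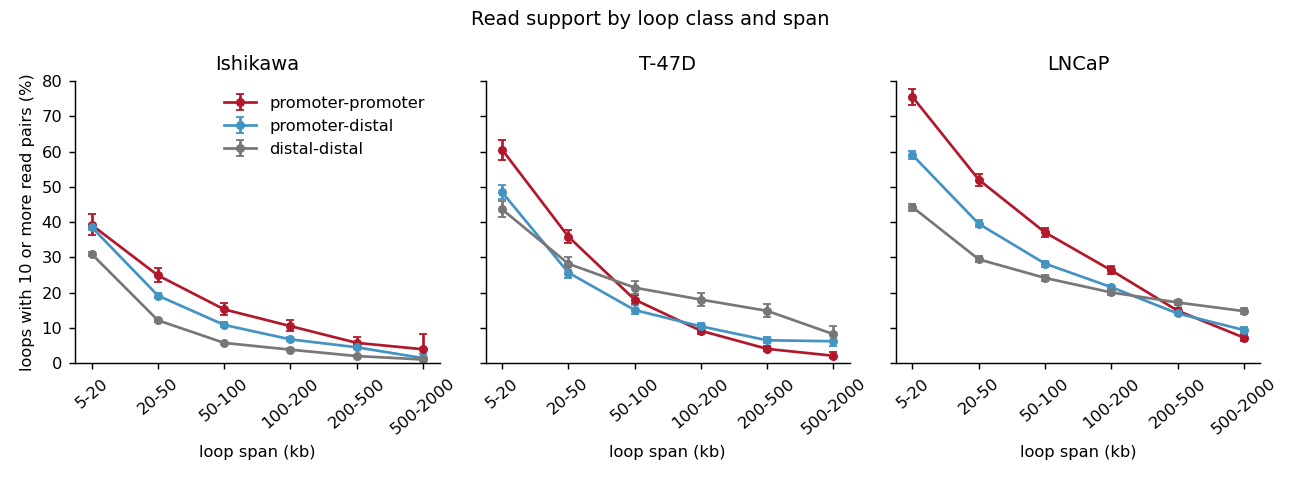
Percent of loops with 10 or more read pairs (vertical) against loop span in kb (horizontal) for the 3 loop classes in each list, with 95% Wilson intervals as bars. At 5 to 20 kb promoter-promoter loops stand highest in the T-47D list (60.6%) and LNCaP (75.5%), and beyond 500 kb they stand lowest in both (2.11% and 7.26%).

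The strongest promoter-promoter loops differed between lines. In Ishikawa the loop with the most read pairs, 209, joined CDK3 and TEN1 (chr17:73980702-74001966) to EVPL (chr17:74003799-74024711), the gene of envoplakin, a protein of desmosomes and the cornified envelope. KCNJ5, a potassium channel gene, and TP53AIP1, a p53 target linked to apoptosis, followed with 164 read pairs. The third joined an anchor over ATN1, C12orf57 and PTPN6 to an anchor over EMG1 and PHB2, with 150. LRRC23 with ATN1 and the glycolytic gene ENO2 had 111, and P2RX6 and SLC7A4 with LRRC74B had 107. All 5 were present in each part of the list. In T-47D, ANAPC2 and SSNA1, the former a subunit of the anaphase-promoting complex, were joined to TPRN by 228 read pairs, and MAP6D1 was joined to PARL, which encodes a mitochondrial protease, by 223. Next came MIPOL1 with an 18.7 kb anchor over FOXA1 and TTC6, with 203. The gene ENSG00000284976 with RNF208 had 123, and CERS2, a ceramide synthase gene, with ANXA9 had 122. FOXA1 encodes a pioneer factor that opens chromatin for the estrogen and androgen receptors.

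LNCaP had the strongest promoter-promoter loop of all, with 1509 read pairs. It joined SMIM47 (chr19:51295214-51310103) to an anchor over KLK15, KLK3, KLK2 and KLK4 (chr19:51337325-51414040). KLK3 encodes prostate-specific antigen, and the cluster is controlled by the androgen receptor. That anchor was 76.7 kb wide, the widest of any promoter-promoter loop, so the 4 kallikrein genes could not be separated. CFAP69 and STEAP2, the latter a metal reductase of prostate cells, were joined to CLDN12, the gene of a tight junction protein, by 670 read pairs over 184.5 kb. VTI1B with RDH11 and RDH12, both retinol dehydrogenase genes, had 505, KDM6B, a histone demethylase gene, with CYB5D1, NAA38 and TMEM88 had 466, and MCCC2 with CARTPT had 422.

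A loop was counted as found in another list when both its anchors overlapped both anchors of 1 loop there. Of the T-47D promoter-promoter loops, 62.15% (61.35 to 62.95%) were found in LNCaP, against 38.9% of all T-47D loops, 31.7% (31.0 to 32.4%) of promoter-distal loops and 16.45% (15.7 to 17.2%) of distal-distal loops. Of the LNCaP promoter-promoter loops, 32.0% (31.4 to 32.5%) were found in T-47D, against 10.3% of all loops and 7.69% of promoter-distal loops. Most promoter-promoter matches were to the same class: 98.4% of the T-47D promoter-promoter loops found in LNCaP matched a promoter-promoter loop there, and 86.4% of the Ishikawa loops found in LNCaP, the lowest share of the 6 comparisons. For promoter-distal loops the same-class share ran from 74.6% to 94.5%.

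Comparisons with the Ishikawa list gave lower shares than those between T-47D and LNCaP, and the gap between classes depended on the direction of the comparison. Of its promoter-promoter loops, 18.2% (17.3 to 19.0%) were found in T-47D, against 2.2% of all its loops and 2.91% of its promoter-distal loops. In LNCaP 26.0% (25.04 to 27.03%) were found, against 5.25% of all and 7.84% of promoter-distal loops. In the opposite direction the order of classes was kept but they lay close together. Of the T-47D promoter-promoter loops, 10.3% (9.76 to 10.8%) were found in Ishikawa, against 9.93% of all T-47D loops and 9.67% (9.23 to 10.1%) of promoter-distal loops. Of the LNCaP promoter-promoter loops, 7.58% (7.27 to 7.90%) were found in Ishikawa, against 6.41% of all LNCaP loops and 6.74% (6.54 to 6.94%) of promoter-distal loops.

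These shares fell with span. T-47D promoter-promoter loops were found in LNCaP in 77.1% (75.4 to 78.7%) of cases at 20 to 50 kb and in 29.5% (26.7 to 32.5%) beyond 500 kb, and promoter-distal loops in 36.8% and 11.96%. The gap between these classes therefore held at matched spans. For T-47D loops looked up in Ishikawa it held at short spans only: 29.7% (27.2 to 32.4%) of T-47D promoter-promoter loops of 5 to 20 kb were found there, against 18.9% (17.4 to 20.5%) of promoter-distal loops. At 100 to 200 kb the shares were 6.49% and 5.93% with overlapping intervals, and beyond 500 kb 0.526% (0.225 to 1.23%) and 1.63%. Distal-distal T-47D loops beyond 500 kb were found in Ishikawa more often, at 2.96% (1.88 to 4.63%). For LNCaP loops looked up in Ishikawa the gap between promoter-promoter and promoter-distal loops held up to 200 kb. The shares were 5.68% against 3.815% at 100 to 200 kb, and 0.512% and 0.549% beyond 500 kb. Loops of T-47D and LNCaP that were found elsewhere had higher median read pairs than those not found, while in Ishikawa the median was 4 in both. Those of LNCaP found in T-47D had a median of 9 read pairs and a median span of 86.5 kb, against 5 read pairs and 205.3 kb for those not found. In Ishikawa, 16.4% of the loops in a single part were found in T-47D, rising to 26.3% (22.0 to 31.1%) of those in all 4 parts.

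**Figure D3:**
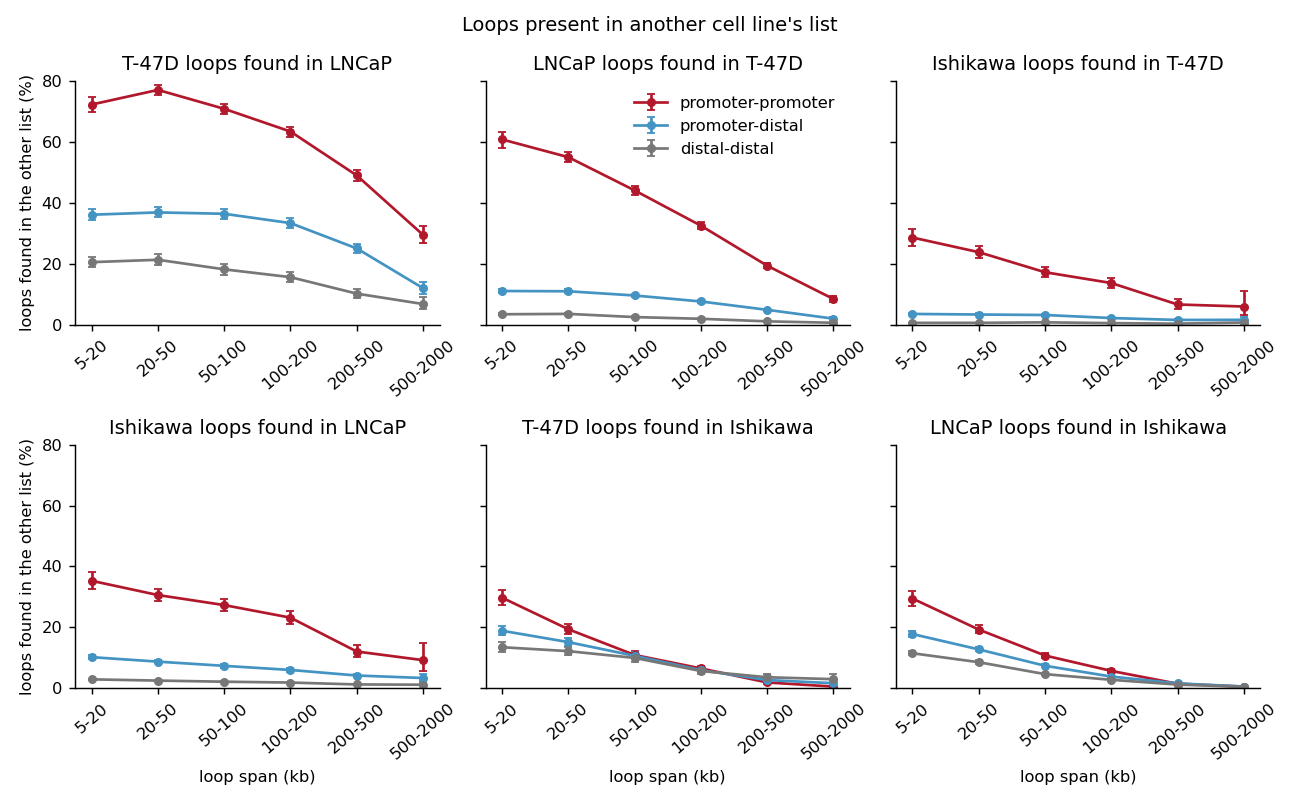
Percent of loops found in another list (vertical) against loop span in kb (horizontal), one panel for each ordered pair of lists, with the 3 loop classes in separate colours and 95% Wilson intervals as bars. Promoter-promoter loops stand highest at every span between T-47D and LNCaP (77.1% of T-47D loops of 20 to 50 kb), and the classes meet at long spans when LNCaP loops are looked up in Ishikawa. When T-47D loops are looked up in Ishikawa, promoter-promoter loops stand lowest from 200 kb on (0.526% against 2.96% of distal-distal loops beyond 500 kb).

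Of 20163 protein-coding genes, 31.9% (6438) had a promoter-promoter loop in Ishikawa, 43.1% (8692) in the T-47D list and 52.4% (10561) in LNCaP. A total of 3746 genes had one in all 3 lists and 7162 in none. Among genes whose promoter lay in any loop, a promoter-promoter loop was present for 55.7% in Ishikawa, 87.6% in the T-47D list and 90.1% in LNCaP. Genes with such loops had a median of 2 partner anchors in Ishikawa, 3 in the T-47D list and 4 in LNCaP. At least 10 partners were seen for 2.11%, 7.89% and 19.3% of them.

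The genes with the most partners differed between lines. In Ishikawa these were EVPL with 25 partner anchors, its neighbours TEN1 and CDK3 with 23 each, RECQL5, a DNA helicase gene, with 22, and ATN1, which encodes a transcriptional corepressor, with 21. EVPL had 13 partners in the T-47D list and 10 in LNCaP. In T-47D the leaders were SAPCD2 with 32, the lipid transporter gene ABCA2 with 30, PAXX, of DNA double-strand break repair, with 28, the transcription factor gene ZBTB7B with 28, and MAF1, a repressor of RNA polymerase III, with 27. SAPCD2, ABCA2 and PAXX lie within the same end of chromosome 9 and had only 2, 2 and 1 partners in Ishikawa. In LNCaP the kallikrein anchor had 46 partners and 2057 read pairs, and NFIX, a nuclear factor I gene, had 41 with 1040. NFIX had 2 partners in the T-47D list and 0 in Ishikawa.

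Loops sharing anchors linked promoters into networks. The 6878 promoter anchors of Ishikawa fell into 1506 connected groups, the 7938 of T-47D into 1046 and the 10844 of LNCaP into 841, and 47.9%, 38.9% and 20.9% of the groups were single loops between anchors joined to no other promoter. The largest Ishikawa group held 92 anchors on chromosome 17, between 55365981 and 74643267. In T-47D the largest held 228 anchors on chromosome 11, between 57077114 and 75528864, and in LNCaP a group of 217 anchors lay over much of the same stretch, between 57072561 and 69491363. A second LNCaP group, also of 217 anchors, and another of 213 were on chromosome 19.

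Pairs of genes were compared over loops with 1 gene in each anchor, which were 5090 in Ishikawa, 8433 in the T-47D list and 15617 in LNCaP. Neighbouring genes, with no other protein-coding gene between their starts, made up 43.0% (41.5 to 44.6%) of the joined pairs in Ishikawa, 30.2% (29.2 to 31.3%) in the T-47D list and 24.3% (23.5 to 25.03%) in LNCaP. Among all gene pairs at the same distances the shares were 21.65%, 18.35% and 13.8%. Genes whose symbols share a stem, most of them members of one family, made up 6.15%, 4.195% and 4.16% of joined pairs, against 10.75%, 9.76% and 8.375% of all pairs at those distances. The joined pairs, 3904, 7604 and 12534 here, leave out family members that share an anchor, while the reference holds all gene pairs. No shortage of family pairs is therefore read from these values. In T-47D and LNCaP orientation lay within 2 percentage points of the reference, while in Ishikawa convergent pairs, at 25.5% (24.1 to 26.85%), exceeded their 21.9% of all pairs. Divergent pairs were 21.3%, 25.8% and 25.1% of joined pairs and 24.3%, 24.3% and 24.3% of all pairs, and the Ishikawa interval (20.1 to 22.6%) lay below its reference. Joined pairs leave out every anchor with more than 1 gene, while the reference leaves out no pair for this. The part of this difference in the neighbour and orientation shares was not tested. Joined pairs passed over a median of 1 gene in Ishikawa and 2 in both other lists. Of the gene positions passed over, 68.35%, 64.5% and 69.45% were themselves in some loop, against 57.3%, 49.2% and 58.1% of all protein-coding genes.

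Each list joined 8965, 20166 and 37264 gene pairs, and 2581 pairs were joined in all 3. T-47D and LNCaP had 13930 pairs in common, 69.1% of the T-47D pairs and 37.4% of the LNCaP pairs. Ishikawa and LNCaP had 4349, which was 48.5% of the Ishikawa pairs and 11.7% of the LNCaP pairs. Ishikawa and T-47D had 3176, or 35.4% of the Ishikawa pairs and 15.75% of the T-47D pairs.

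In all 3 lists 725 pairs were joined by loops with a single gene at each end, and 448 of these were neighbours. PRDX1, which encodes a peroxiredoxin that removes hydrogen peroxide, was joined to AKR1A1, an aldo-keto reductase gene, by 41 read pairs in Ishikawa, 40 in the T-47D list and 90 in LNCaP. The pair stood at percentile 98.2, 98.3 and 98.9 of such pairs by read pairs, and both promoters carry GC boxes and an ETS core in the stretches printed above. The printed PRDX1 start lay in loops with 15, 40 and 90 of these read pairs and the printed AKR1A1 start with 41, 21 and 65. NR4A1, the gene of an orphan nuclear receptor induced within minutes of stimulation, was joined to ATG101, of the autophagy initiation complex, by 35, 46 and 89. DNAJC9, a histone chaperone gene, and MRPS16, of the mitochondrial ribosome, had 34, 77 and 134 over 6.04, 5.72 and 5.88 kb. FKBP4, a co-chaperone of steroid receptors, and ITFG2 had 46, 26 and 42. TMEM184A and PSMG3, a proteasome assembly factor gene, had 28, 104 and 124. LUC7L, a splicing factor gene, and FAM234A had 37, 24 and 39. EPHB3, an ephrin receptor gene, and MAGEF1 formed the longest of these pairs, 150.3 kb between starts, with 29, 24 and 35. BORCS6 and AURKB, a mitotic kinase gene, had 24, 25 and 84. These pairs were not always joined at the same places. The strongest loops spanned 10.2, 29.4 and 30.8 kb for PRDX1, and 13.9, 18.7 and 18.2 kb for NR4A1. They spanned 9.02, 17.4 and 17.1 kb for FKBP4, 8.82, 10.3 and 12.2 kb for TMEM184A, and 18.6, 5.845 and 6.22 kb for LUC7L. For EPHB3 they spanned 136, 147 and 147.9 kb, and for BORCS6 28.3, 21.8 and 21.15 kb.

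Pairs joined in 1 list only were led by different genes in each line. In Ishikawa KCNJ5 and TP53AIP1 had 185 read pairs in 2 loops, and 164 of them were at the GC-rich KCNJ5 start printed above. All 185 were at another annotated start of TP53AIP1, whose canonical start lay in no anchor of these loops. ATP9B, a lipid flippase gene, and NFATC1, a transcription factor gene, followed with 132 in 8 loops, INPP5A and CFAP46 with 109, KNDC1 and UTF1, a chromatin factor gene of pluripotent cells, with 82, and SLC47A2 and ALDH3A1, a transporter and an aldehyde dehydrogenase gene, with 78. In T-47D MAP6D1 and PARL had 314, all at the printed MAP6D1 start but only 91 of them at the canonical start of PARL. FASN, which encodes fatty acid synthase, and CCDC57 had 116. ACOT2 and ACOT4, both acyl-CoA thioesterase genes, had 92, but these are close copies between which reads may be split. HOXC11 and HOXC6 had 123 and PEX16 and LARGE2 had 66. In LNCaP MCCC2, of leucine breakdown, and CARTPT had 994 in 3 loops, all at the printed CARTPT start, and 355 of them at the printed MCCC2 start. SAMD13 and DNASE2B had 388, ARFGEF3 and PBOV1 369, ANKRD29 and LAMA3, a laminin chain gene, 324, and ATP8B1 and NEDD4L, a ubiquitin ligase gene, 268 in 17 loops. None of these values has a replicate, and a pair missing from the shallower T-47D list may lie below its minimum of 3 read pairs.

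Gene lists were set against the shares of all protein-coding genes given above. Genes of the protein-making and protein-clearing machinery were above them. Cytosolic ribosomal protein genes had promoter-promoter loops for 35 of 86 in Ishikawa (40.7%), 74 in the T-47D list (86.05%) and 79 in LNCaP (91.9%). In any loop were 60, 75 and 80 of these genes. Among all genes in any loop, 55.7%, 87.6% and 90.1% had a promoter-promoter loop. Mitochondrial ribosomal protein genes had promoter-promoter loops for 37, 58 and 73 of 78 (47.4%, 74.4% and 93.6%). Proteasome subunit genes had them for 19, 31 and 32 of 39 (48.7%, 79.5% and 82.05%). In any loop were 55, 62 and 78 of the mitochondrial ribosomal genes and 25, 34 and 35 of the proteasome genes. The Ishikawa interval of the cytosolic ribosomal genes, 30.9 to 51.3%, held the share of all genes there, while those of the mitochondrial ribosomal genes, 36.7 to 58.4%, and of the proteasome genes, 33.9 to 63.8%, lay above it. These genes were mostly joined to genes outside their own list: only 2, 3 and 3 pairs linked cytosolic ribosomal protein genes with each other, among them RPS26 with RPL41 (23, 25 and 23 read pairs).

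Clustered families behaved in another way. Replication-dependent histone genes, most of which sit in clusters on chromosome 6, had loops for 28, 46 and 50 of 66 genes (42.4%, 69.7% and 75.8%). All protein-coding genes had them for 31.9%, 43.1% and 52.4%, and the Ishikawa histone interval, 31.2 to 54.4%, held that share. Histone genes were joined with each other in 67, 575 and 633 pairs. Their median numbers of partner anchors were 3, 18 and 21. Histone genes are near-identical copies and many share an anchor, so these pairs are uncertain. Zinc finger genes named ZNF, mostly transcriptional repressors, were below the share of all genes in Ishikawa, with 118 of 508 (23.2%, 19.8 to 27.1%), and above it in T-47D, with 331 (65.2%), and LNCaP, with 378 (74.4%). They formed 32, 338 and 658 pairs with each other. ZNF747 with ZNF768 was the strongest in T-47D, with 85, and had 147 in LNCaP.

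Families of tissue-restricted or developmental genes were not ordered between lines like the machinery genes. HOX genes, which set body position, had promoter-promoter loops for 23 of 39 in Ishikawa (59.0%, 43.4 to 72.9%), 10 in the T-47D list (25.6%) and 13 in LNCaP (33.3%). The shares of all genes were 31.9%, 43.1% and 52.4%. The strongest HOX pairs in Ishikawa were HOXD3 with HOXD9 and HOXD9 with HOXD8 (25 read pairs each), in T-47D HOXC11 with HOXC6 (123) and in LNCaP HOXC5 with HOXC6 (60). Keratin genes, of the epithelial cytoskeleton, had loops for 28 of 55 in Ishikawa (50.9%, 38.1 to 63.6%), 8 in the T-47D list (14.55%) and 4 in LNCaP (7.27%). KRT23 with KRT39 led in Ishikawa (27), KRT19 with KRT15 in the T-47D list (20) and KRT8 with KRT2 in LNCaP (15). Clustered protocadherin genes, of neuronal identity, had 17, 18 and 10 of 53 (32.1%, 34.0% and 18.9%). Their intervals held the share of all genes in Ishikawa and T-47D and lay below it in LNCaP (10.6 to 31.4%). Olfactory receptor genes, which are silent in most cells outside the nose, had 61 of 414 in Ishikawa (14.7%, 11.6 to 18.5%), 7 in LNCaP and 0 in T-47D, which allows a share of up to 0.725% by the limit of 3 counts of the total. OR1L4 with OR1L6 had 23 read pairs in Ishikawa. Of the 7 in LNCaP, OR51E2 led with 112 read pairs to OR51D1. The Ishikawa list had the widest promoter anchors and the smallest share of its ends over promoters, and the part of either in these family counts was not tested.

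**Figure D4:**
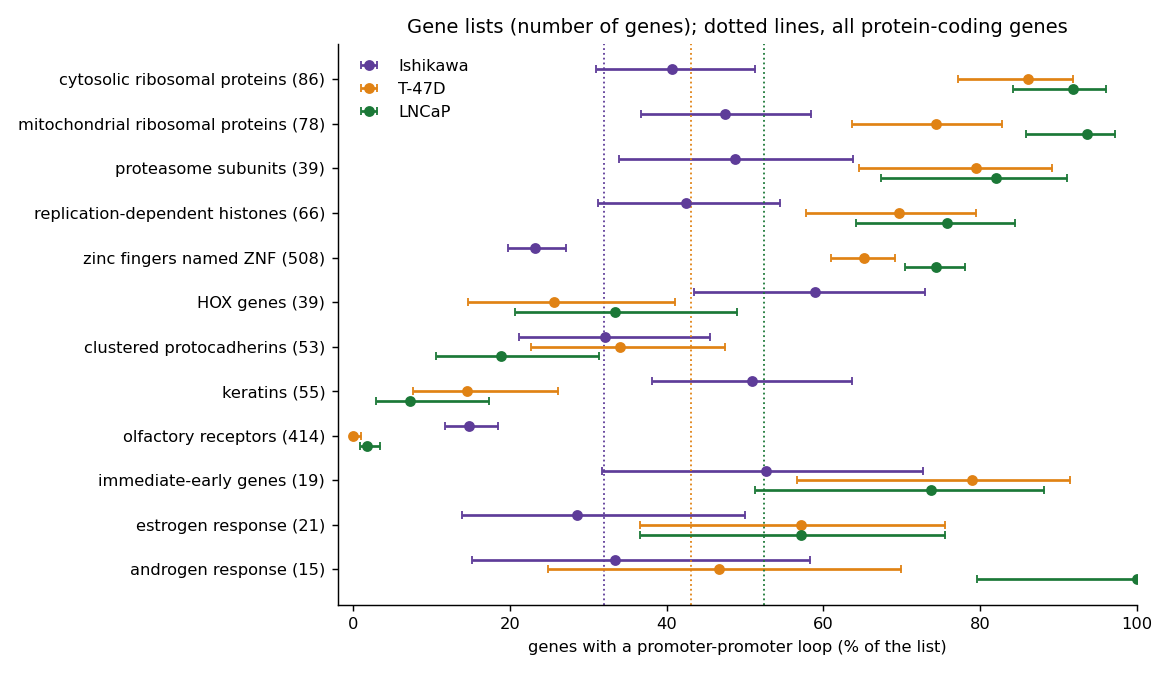
Percent of the genes of each list that had a promoter-promoter loop (horizontal) for 12 gene lists (vertical, with the number of genes), one point per cell line with its 95% Wilson interval. Dotted lines give the share of all protein-coding genes (31.9%, 43.1% and 52.4%); ribosomal and proteasome genes lie to the right of them in the T-47D list and LNCaP, and olfactory receptors to the left in all 3.

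Among hormone-responsive genes, the androgen-response list had its highest count in LNCaP. All 15 listed androgen-response genes had a promoter-promoter loop in LNCaP, against 5 in Ishikawa (33.3%) and 7 in T-47D (46.7%). In any loop were 15 in LNCaP, 13 in Ishikawa and 9 in T-47D. Among all genes in any loop, 90.1% had a promoter-promoter loop in LNCaP, 55.7% in Ishikawa and 87.6% in T-47D. KLK2 and KLK3, both in this list, share the same anchor in LNCaP. The shares of all genes were 31.9%, 43.1% and 52.4%, so LNCaP was also highest over all genes, and the interval of the androgen list lay above that share in LNCaP alone (79.6 to 100%). Their median number of partner anchors in LNCaP was 9. SLC45A3, a prostate-restricted transporter gene, had 9 partners and 437 read pairs in LNCaP and 0 in both other lists. FKBP5, a co-chaperone of steroid receptors, had 17 partners in LNCaP, 3 in the T-47D list and 0 in Ishikawa. TMPRSS2, a protease gene, had 13 partners and 173 read pairs in LNCaP, 4 partners and 52 read pairs in Ishikawa, and none in T-47D. The LNCaP loops all used an anchor at the gene's 5′ end (chr21:42888286-42905250). Only 3 of the 52 Ishikawa read pairs came from an anchor overlapping it. The others came from chr21:42824601-42852630, over the 3′ end of the gene, so the values of these lines describe different parts of TMPRSS2. The only pair within the list was TPD52 with ZBTB10 in LNCaP (76).

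Of 21 estrogen-response genes, 6 had a promoter-promoter loop in Ishikawa (28.6%), 12 in the T-47D list (57.1%) and 12 in LNCaP (57.1%). The intervals, 13.8 to 49.96% in Ishikawa and 36.55 to 75.5% in both others, held the shares of all genes, 31.9%, 43.1% and 52.4%. GREB1, a coactivator of the estrogen receptor, had 2 partners and 19 read pairs in Ishikawa, all with E2F6, 5 and 71 in T-47D, and 6 and 62 in LNCaP. CCND1, the gene of cyclin D1, had 3, 5 and 3 partners with 25, 119 and 41 read pairs. RARA, a retinoic acid receptor gene, had 21 partners and 227 read pairs in T-47D, against 3 and 37 in Ishikawa and 6 and 26 in LNCaP, and its loop to IGFBP4 (28) was the only pair within this list in T-47D. AREG, KRT13, PDZK1 and FHL2 had none in any list.

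Among the genes the study targeted, TGFA, a growth factor gene, was joined in Ishikawa only, to FAM136A with 3. The TGFA anchor of this loop (chr2:70685893-70700495) lay inside the gene, over another annotated start, and not at the 5′ end (70781325). PEG10, an imprinted gene, was joined in T-47D only, to CASD1 with 5 and PPP1R9A with 3, from an anchor that also covers SGCE.

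Immediate-early genes, which respond within minutes to many stimuli, had loops for 10 of 19 in Ishikawa (52.6%, 31.7 to 72.7%), 15 in the T-47D list (78.95%, 56.7 to 91.5%) and 14 in LNCaP (73.7%, 51.2 to 88.2%). The intervals held the share of all genes in Ishikawa (31.9%) and LNCaP (52.4%) and lay above it in T-47D (43.1%). In any loop were 15, 17 and 17 of these 19 genes. Among all genes in any loop, 55.7%, 87.6% and 90.1% had a promoter-promoter loop. JUND had 6 partners in Ishikawa, 2 in the T-47D list and 20 in LNCaP, and EGR1 had 0, 10 and 14. IER2 and JUNB formed the only pair within the list, with 3 read pairs in the T-47D list and 3 in LNCaP.

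Markers of each line were checked by the same measure. All protein-coding genes had such loops for 31.9%, 43.1% and 52.4%, and with so few markers every interval held that share. In their own lines the intervals were 20.8 to 93.85% for Ishikawa markers, 37.55 to 96.4% for T-47D markers and 43.65 to 97.0% for LNCaP markers. Of 6 LNCaP markers, 5 had promoter-promoter loops in LNCaP, 1 in the T-47D list and 2 in Ishikawa. KLK2 and KLK3 are both counted in LNCaP, from the same anchor. HOXB13, a prostate transcription factor gene, had 21 partners and 567 read pairs in LNCaP and 0 elsewhere, from an anchor that also covers PRAC1 and PRAC2, and its strongest loop reached TTLL6 (214). FOLH1 was at 0 in every list. Of 5 T-47D markers, 4 had loops in T-47D, 2 in LNCaP and 1 in Ishikawa. GATA3, of the luminal breast programme, had 2 partners and 36 read pairs in the T-47D list and 0 elsewhere, while TFF1 had 4 partners in LNCaP and 0 in T-47D. Of 3 Ishikawa markers, 2 had loops in Ishikawa and none elsewhere: PAX8, a transcription factor gene of the reproductive tract, had 67 read pairs, all to PSD4 and IL1RN, and EMX2 had 3, to NANOS1, while SOX17 had none. Only 2 PAX8 loops, with 3 and 23 read pairs to PSD4, used the anchor over the gene's 5′ end (chr2:114029281-114048139). The others, with all read pairs to IL1RN, used chr2:113973846-113989907, over its 3′ end.

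Sequence around gene starts, from 250 bases before to 50 after the most upstream annotated start, was compared between genes with a promoter-promoter loop, genes whose promoter had other loops only, and genes in no loop. The CpG ratio, the number of CpG dinucleotides over that given by the C and G content, had a median of 0.694 over all genes. Genes with a promoter-promoter loop had medians of 0.750 in Ishikawa, 0.810 in the T-47D list and 0.807 in LNCaP, and genes in no loop 0.571, 0.452 and 0.382. Genes with other loops only were close to the former, at 0.761, 0.799 and 0.774.

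Words of CpG island promoters followed this order. The GC box was in 57.8% (56.6 to 59.0%) of genes with a promoter-promoter loop and 45.7% of genes in no loop in Ishikawa, in 63.9% and 40.9% in T-47D, and in 63.0% and 37.6% in LNCaP, against 52.2% of all genes. Genes with other loops only held it nearly as often, in 56.0%, 63.6% and 59.7%. The ETS core was in 27.8% (26.9 to 28.8%) of promoter-promoter genes in T-47D, 23.2% (20.9 to 25.7%) of genes with other loops only and 11.7% of genes in no loop, against 19.4% of all genes. In LNCaP these shares were 27.2% (26.4 to 28.1%), 22.4% (20.05 to 24.85%) and 9.19%. In Ishikawa the former pair was 22.6% and 21.6%, with overlapping intervals. The NRF1 word was in 3.77% of all genes and the YY1 word in 3.16%, and in LNCaP they were in 5.56% and 4.79% of promoter-promoter genes, 3.73% and 3.73% of genes with other loops only and 1.53% and 1.045% of genes in no loop. The TATA box ran the other way, in 8.42%, 6.48% and 6.81% of promoter-promoter genes and 13.7%, 14.9% and 16.2% of genes in no loop, with genes with other loops only in between at 9.25%, 8.36% and 8.925%. CCAAT was nearly even, at 36.3%, 37.0% and 37.0% against 35.8% of all genes, and the estrogen response element was in 0.0546% of all genes, too few to compare.

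Genes with a promoter-promoter loop in Ishikawa alone stood apart from those of the other lists and near genes in no loop. These 1429 genes had a median CpG ratio of 0.371, a GC box in 39.0% and a TATA box in 15.3%. The 670 genes of T-47D alone had 0.701, 59.3% and 10.4%, the 1958 of LNCaP alone 0.765, 59.6% and 8.89%, and the 3746 joined in all 3 lists 0.817, 64.9% and 5.98%. Genes in no loop in LNCaP had 0.382, 37.6% and 16.2%. All of these values are from the most upstream annotated start, which is not always the start in the loop.

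**Figure D5:**
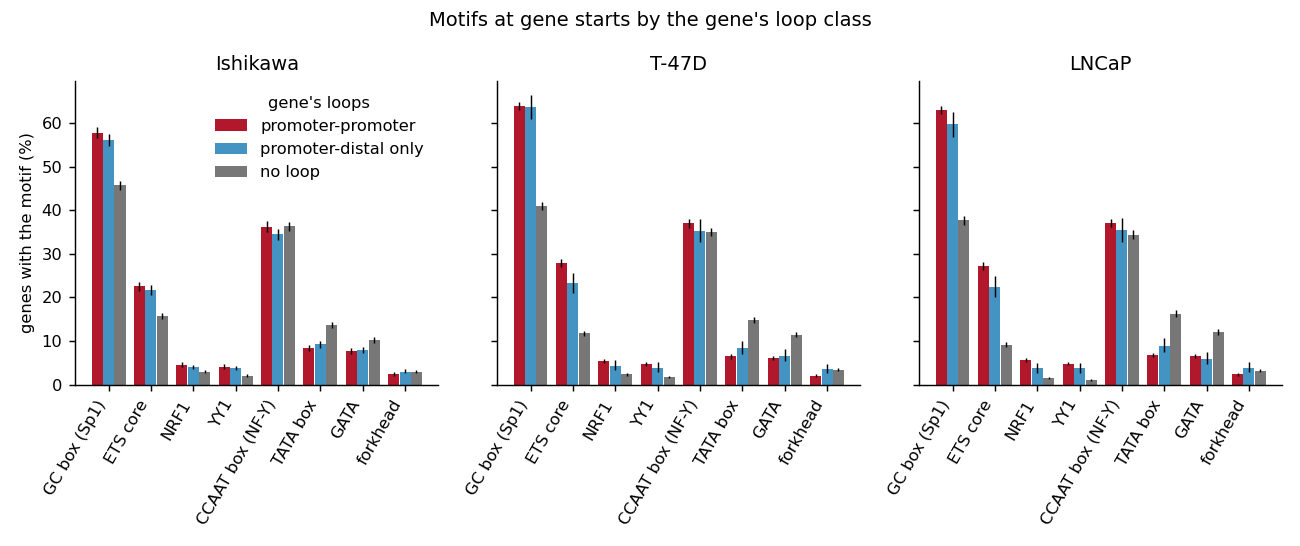
Percent of genes with a sequence word near the gene's start (vertical) for 8 words (horizontal), by the gene's loops in each list, with 95% Wilson intervals as bars. GC box and ETS core are highest in genes with promoter-promoter loops and lowest in genes with none (63.0% against 37.6% for the GC box in LNCaP), and the TATA box runs the other way. Genes with other loops only lie between, near the former for the GC box (59.7% in LNCaP).

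In T-47D and LNCaP the longest promoter-promoter loops with 10 or more read pairs joined members of the same family, and in Ishikawa they did not. The longest Ishikawa loop, 1602 kb, joined MEIS1, a homeobox gene, to C1D with 12 read pairs, and MSRB3 was joined to LLPH and TMBIM4 over 830.3 kb with 17. DPYSL4 and CFAP46 followed at 637.8 kb with 11. In T-47D the longest joined NOTCH2 to an anchor over NOTCH2NLA, NBPF10 and other NOTCH2NL copies 24600 kb away with 13 read pairs. These are near-identical copies on chromosome 1, so the assignment of these reads is uncertain. The next in the T-47D list and all 3 in LNCaP joined parts of the histone clusters of chromosome 6 1813 and 1830 kb apart in T-47D, with 11 and 13 read pairs, and 1834, 1813 and 1807 kb apart in LNCaP, with 51, 12 and 62.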

How the data were processed

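Deposited files held, per the labels and the study's methods, loops of H3K27ac HiChIP called by the authors: reads were aligned to hg19 with HiC-Pro, loops were called with hichipper, and loops under 3 read pairs or past the false discovery rate limit were removed. The deposited value is a count of read pairs per loop, not scaled for depth, 1 list per line. Read pairs of the same anchor pair were summed over the 4 parts of the Ishikawa list. Pairs of an anchor with itself or across chromosomes were set aside. The LNCaP list held no promoter-promoter loop under 5 kb or over 2 Mb, against 21 and 6 in Ishikawa and 38 and 93 in T-47D.

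Promoters were 500 bp windows on 146567 start sites of 20163 protein-coding genes (GENCODE lifted to GRCh37), leaving out 13 mitochondrial genes. Starts of all promoter-promoter anchors fell on GATC within 6 bases in that genome. Shares have Wilson intervals and medians binomial intervals. With 1 list per line no test was possible. The code (Python 3.11.15, pandas 2.3.3) was tested on simulated loops.

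The members, gene lists and rules for named genes were chosen with earlier results of these data known. Named were the 5 strongest loops, 5 genes with the most partners, 3 longest loops with 10 or more read pairs and 5 strongest pairs joined in no other list, per list, the 8 highest-ranked pairs joined in all lists, the strongest pairs within gene lists, markers, and genes the study perturbed. Some items these rules name are not reported here. Genes from listed hormone and immediate-early sets were picked after their values were seen. Readthrough genes or genes of the same symbol touched 0.228%, 0.277% and 0.196% of the promoter-promoter loops.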

Additional observations from a re-analysis of the deposited data

Results flagged for a closer look

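The T-47D list held 70 entries that joined anchors on different chromosomes, with 308 read pairs, which no comparison above used. In 10 of them, 14.3% (95% Wilson interval 7.95 to 24.3%), both anchors lay over a promoter, and the other lists had no such entries. The strongest joined MRPS16 on chromosome 10 to MECOM on chromosome 3 with 9 read pairs, and 3 of the 10 entries started from that MRPS16 anchor. Another 4 entries joined KIAA0232, BLOC1S4 or MRFAP1L1 on chromosome 4 to CLPTM1L or SLC12A7 on chromosome 5. Whether these entries reflect contacts, rearranged chromosomes or misplaced reads was not tested.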

How the results depend on the processing

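Promoter-promoter loops were longer than promoter-distal loops, and the share of the list was lowest in Ishikawa and highest in T-47D, under every alternative run, but sizes moved. All of these runs left out loops joining starts of the same gene. With 10 read pairs or more, 1392 Ishikawa, 2625 T-47D and 7614 LNCaP loops were left, the differences in median span were 15.96, 8.42 and 25.22 kb, and 66.44% of T-47D loops were found in LNCaP, 7.505% in Ishikawa, and 4.071% of LNCaP loops in Ishikawa. With 1 start site per gene there were 2571 Ishikawa and 16489 LNCaP loops, the shares of the lists fell to 1.57%, 23.2% and 11.05%, span differences of 9.614, 16.52 and 30.47 kb, 67.36% of T-47D loops found in LNCaP and 8.951% of LNCaP loops in Ishikawa. With both deeper lists thinned to the total of T-47D there were 2240 Ishikawa and 6321 LNCaP loops, span differences of 17.66 and 25.77 kb, 25.31% of T-47D loops found in LNCaP and 3.872% in Ishikawa, and 5.774% of LNCaP loops in Ishikawa. Ishikawa loops in 2 or more parts numbered 2651, with a span difference of 17.86 kb, and 4.361% of T-47D and 3.17% of LNCaP loops matched them. Asking for 50% overlap of both anchors gave 29.51% of T-47D loops in LNCaP, 0.7162% in Ishikawa and 1.237% of LNCaP loops in Ishikawa. A 2 kb promoter window gave 61.05% of T-47D loops in LNCaP. The gap over promoter-distal loops in the share found in Ishikawa turned for LNCaP loops with 10 read pairs or more (-0.188 percentage points) and for T-47D loops after thinning (-0.158) or against Ishikawa loops in 2 or more parts (-0.469). At the start of the canonical transcript, chosen after seeing the data, median CpG ratios of genes with promoter-promoter loops were 0.8182, 0.8606 and 0.8601. Restricting spans to 5 kb to 2 Mb moved none of these values beyond the limits used for the others. No paired analysis was possible because each line had 1 merged list. Causes of these changes were not tested. The minimum of 3 read pairs limits what the shallow T-47D list can show.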
